A study of Homo sapiens with 12 samples.

Results

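The genes described here act in G2 and mitosis, the phases in which a cell that has copied its DNA condenses, aligns, separates and encloses its chromosomes. The list named 38 genes, and a gene entered where the arrays had a probe set annotated to that gene alone. This held for 37 of the 38, out of 18239 genes with such a probe set. PTTG1 (securin), which holds back the protease separase, was covered only by 2 probe sets that name several genes, and its level is not reported. Where a gene had several probe sets, the one with the highest mean level over the arrays stood for it.

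Transcripts were measured on 12 single-colour Affymetrix arrays, with 1 array for each treatment in each of 3 human lines of multiple myeloma, the plasma cell cancer, labelled ARP1, JJN3 and RPMI-8226. Cells were treated for 6 h. The groups were CPI203, a BET bromodomain inhibitor, at 0.01 µM; LenDex, which is 5 µM lenalidomide with 0.05 µM dexamethasone; Combo, which is all 3 agents at those doses; and Control, with none of them. Lenalidomide and dexamethasone were never given apart, so their effects cannot be told apart. The study asked whether CPI203 adds to lenalidomide activity in myeloma.

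Entry into mitosis is driven by the kinase CDK1 bound to cyclin B. CDC25 phosphatases switch the pair on, and the Aurora and Polo-like kinases act beside it on centrosomes, spindle and chromosomes. The spindle checkpoint (BUB1, BUB1B, BUB3, MAD2L1, TTK) holds the anaphase-promoting complex in check until every chromosome is attached, after which CDC20 and UBE2C help that complex to mark cyclin B and securin for destruction. Most of these genes are transcribed in late S phase and G2. Their promoters often carry a CHR element, bound by MuvB complexes with B-MYB and FOXM1 in dividing cells or as the repressing DREAM complex in resting cells, together with CCAAT boxes bound by NF-Y. Among the agents, CPI203 displaces BET proteins from acetylated histones, lenalidomide makes cereblon mark IKZF1 and IKZF3 for degradation, and dexamethasone is a ligand of the glucocorticoid receptor.

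The promoter windows show whether those letters are present in the genes that the results turn on. RefSeq windows on GRCh38.p14, from 250 bases before to 50 bases after the start of the first transcript listed, were at hand for 31 of the 38 genes, PTTG1 included. AURKA, BIRC5, BUB3, FOXM1, TPX2, TTK and UBE2C had none. The CHR letters TTTGAA, searched on both strands, stood in 19 of the 31 windows (61.3%), against 15.4% of 27305 windows of all genes in the table. CCAAT, on either strand, stood in 24 (77.4%), against 35.7%, and both motifs stood in 17 (54.8%), against 6.08%. Among 12193 windows of genes bright enough on the arrays to be tested, the shares were 11.1% for TTTGAA, 36.6% for CCAAT and 4.65% for both. The motifs overlapped in 0 of the 31 windows. These matches describe letters and do not show binding.

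The windows below run from 120 bases before to 30 bases after the start, 5′ to 3′ on the strand of the gene. They are given for genes with a treatment call (CCNB1, MAD2L1, CKAP2 and CCNF) and for KIF23 and PLK1, the largest falls with LenDex that missed the threshold. Capitals mark TTTGAA or CCAAT or their reverse complements.
CCNB1 (chr5:69167030-69167179, plus strand): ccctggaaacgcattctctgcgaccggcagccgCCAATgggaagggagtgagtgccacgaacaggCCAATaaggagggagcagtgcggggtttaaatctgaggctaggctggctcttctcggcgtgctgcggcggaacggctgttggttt
MAD2L1 (chr4:120066819-120066968, minus strand): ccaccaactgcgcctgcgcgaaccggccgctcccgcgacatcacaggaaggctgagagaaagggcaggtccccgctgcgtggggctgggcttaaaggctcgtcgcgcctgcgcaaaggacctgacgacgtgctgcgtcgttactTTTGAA
KIF23 (chr15:69414229-69414378, plus strand): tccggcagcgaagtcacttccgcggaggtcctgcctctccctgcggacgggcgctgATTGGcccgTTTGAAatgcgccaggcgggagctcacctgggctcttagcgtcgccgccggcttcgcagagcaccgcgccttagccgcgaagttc
PLK1 (chr16:23678769-23678918, plus strand): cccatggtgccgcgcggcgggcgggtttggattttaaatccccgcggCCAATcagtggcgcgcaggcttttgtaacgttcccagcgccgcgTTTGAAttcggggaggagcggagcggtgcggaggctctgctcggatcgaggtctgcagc
CKAP2 (chr13:52455868-52456017, plus strand): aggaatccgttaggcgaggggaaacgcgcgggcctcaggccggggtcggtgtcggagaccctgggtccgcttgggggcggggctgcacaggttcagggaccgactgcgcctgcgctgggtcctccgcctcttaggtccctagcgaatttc
CCNF (chr16:2429327-2429476, plus strand): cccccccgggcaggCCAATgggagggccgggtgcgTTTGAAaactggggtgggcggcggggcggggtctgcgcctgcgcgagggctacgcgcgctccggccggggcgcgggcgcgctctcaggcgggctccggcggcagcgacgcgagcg
PLK1, KIF23 and CCNF carried both motifs in the stretch shown. CCNB1 carried CCAAT at 2 places and MAD2L1 carried TTTGAA at position 25 after the start. Outside the stretch shown, MAD2L1 also carried CCAAT on the opposite strand, at position -229. CKAP2 carried neither motif in its whole window. That window lies inside the gene, past its listed start at chr13:52455478, so letters around that start were not searched.

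Arrays labelled JJN3 and RPMI-8226 lacked the defining plasma cell marker and carried a B cell marker. SDC1 (CD138), the defining plasma cell surface protein, stood at 11.78 to 12.26 on the ARP1 arrays, 5.15 to 5.79 on the JJN3 arrays and 4.96 to 5.38 on the RPMI-8226 arrays, on the log2 scale of the deposited values. MS4A1 (CD20), a B cell marker that plasma cells usually lack, stood at 4.59 to 5.33, 11.63 to 11.89 and 11.48 to 12.06 on the same arrays. The median of 8 plasma cell markers was 11.56 to 11.75 on ARP1 arrays, 6.99 to 8.48 on JJN3 arrays and 6.73 to 8.63 on RPMI-8226 arrays, and that of 6 B cell markers was 5.40 to 5.62, 8.59 to 9.19 and 8.26 to 9.44. Medians of T cell, monocyte and fibroblast markers lay between 4.78 and 5.48 on all arrays, and that of epithelial markers reached 7.17 on a JJN3 array. JJN3 and RPMI-8226 arrays correlated with each other at 0.963 to 0.981, close to the 0.980 to 0.990 among JJN3 arrays, whereas ARP1 and JJN3 arrays correlated at 0.876 to 0.887. The JJN3 control array also stood apart from the other JJN3 arrays in the immunoglobulin gene IGKC, at 9.32 against 5.11 to 5.55. JJN3 and RPMI-8226 therefore mean here the arrays so labelled, and nothing in these values identifies their cells. The glucocorticoid targets FKBP5 and TSC22D3 were higher on all 6 LenDex and Combo arrays than on the CPI203 and Control arrays of the same line.

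All 37 genes passed the filter on dim genes, a log2 level of 5 on at least 3 arrays, as did 15173 genes in all. The average effect of LenDex sets the 6 arrays with it (LenDex and Combo) against the 6 without it (CPI203 and Control) within lines. The fit was made in limma over all genes, and a gene was called at a Benjamini-Hochberg adjusted p under 0.05. With 1 array for each line and treatment, the error is how far the lines differ in their response, and fewer cells in G2 or mitosis cannot be told apart from less transcript per cell. The JJN3 and RPMI-8226 arrays resembled each other closely. If they are not independent lines, this error is too small and the adjusted p values are too low.

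LenDex lowered a small number of mitotic genes. AURKA, CKAP2, MAD2L1 and CCNB1 fell by 1.30-fold to 1.37-fold, and no gene of the list was called higher. The 4 falls were 10.8% of the 37 genes, where 4.25% of all genes tested were called in either direction and 2.52% lower. The median difference of the 37 was -0.10 on the log2 scale, against 0.01 for all genes. It was -0.05 without the RPMI-8226 arrays, -0.17 without the ARP1 arrays, -0.06 with cyclic loess normalization and -0.19 with the probe set of largest spread. Differences lay below 0 for 28 of the 37 (48.0% of all genes), and 17 were lower in all 3 lines (45.9%, against 18.7% of all genes).

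AURKA encodes Aurora A, the kinase that matures centrosomes and helps activate CDK1. Its log2 level on the ARP1, JJN3 and RPMI-8226 arrays was 10.04, 9.29 and 9.75 with LenDex and 10.06, 9.18 and 9.39 with Combo, against 10.38, 9.55 and 10.10 with CPI203 and 10.28, 9.79 and 10.30 in Control. Within every line both arrays with LenDex lay below both without it. The average effect was -0.45 ± 0.09 (SE; limma adjusted p = 0.0246), a 1.37-fold fall.

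CCNB1 encodes cyclin B1, the partner of CDK1 at mitotic entry. Its levels were 11.19, 10.39 and 10.73 with LenDex and 11.30, 10.33 and 10.66 with Combo, against 11.46, 10.96 and 11.55 with CPI203 and 11.40, 10.48 and 11.32 in Control. Both arrays with LenDex lay below both without it in every line (ARP1 -0.19, JJN3 -0.36, RPMI-8226 -0.74). The average effect was -0.43 ± 0.10 (SE; limma adjusted p = 0.0492), a 1.35-fold fall that stood just inside the threshold.

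MAD2L1 encodes MAD2, the checkpoint protein that sequesters CDC20. It stood at 10.59, 10.18 and 10.20 with LenDex and 10.57, 10.46 and 10.28 with Combo, against 10.86, 10.44 and 10.70 with CPI203 and 11.08, 10.48 and 10.96 in Control. The groups did not overlap in ARP1 or RPMI-8226, but on the JJN3 arrays Combo lay above CPI203. The average effect was -0.37 ± 0.09 (SE; limma adjusted p = 0.0478), a 1.30-fold fall, and its other 2 probe sets above the filter gave -0.31 and -0.55.

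CKAP2, a spindle microtubule protein, was called in both average effects and in opposite directions. It stood at 9.95, 7.94 and 8.22 with LenDex and 10.14, 8.55 and 8.92 with Combo, against 10.51, 8.99 and 9.41 with CPI203 and 10.27, 8.21 and 8.73 in Control. In each line the CPI203 array was the highest and the LenDex array the lowest, and in ARP1 the Combo array lay below Control while in JJN3 and RPMI-8226 it lay above. The LenDex average effect was -0.40 ± 0.09 (SE; limma adjusted p = 0.0478), a 1.32-fold fall. Its 5 probe sets gave LenDex differences of -0.47 to -0.21.

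The 4 calls depended on the processing and on single arrays. With cyclic loess normalization, or with all probe sets tested singly, AURKA alone was called, and with the JJN3 and RPMI-8226 arrays of a treatment averaged 0 genes were. Without the JJN3 Control array, which stood apart in IGKC, 1 gene (MAD2L1) was called. Without the ARP1 Control array or the JJN3 Combo array the count was also 1. It was 2 without the ARP1 CPI203 or the ARP1 LenDex array, 3 without the ARP1 Combo array, and 0 without the JJN3 CPI203 array, the JJN3 LenDex array or any one RPMI-8226 array.

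Several core regulators fell short of the threshold. CDK1, the mitotic kinase itself, stood at 10.57, 10.80 and 11.09 with LenDex and 10.82, 10.92 and 10.96 with Combo, against 11.11, 11.05 and 11.45 with CPI203 and 11.09, 10.94 and 11.30 in Control. Within lines, LenDex was paired with Control and Combo with CPI203, which gives 6 pairings. All 6 were lower with LenDex for CDK1, and the difference was -0.30 ± 0.08 (SE; limma adjusted p = 0.0626). KIF23, a kinesin of the central spindle, read 9.18, 8.92 and 9.25 with LenDex and 9.37, 8.95 and 9.40 with Combo, against 9.46, 9.12 and 9.86 with CPI203 and 9.61, 9.08 and 9.76 in Control. It too was lower in 6 of 6 pairings, with a difference of -0.30 (adjusted p = 0.0569). PLK1, Polo-like kinase 1, read 9.27, 8.58 and 8.80 with LenDex and 9.34, 8.15 and 8.72 with Combo, against 9.41, 8.33 and 9.29 with CPI203 and 9.55, 8.68 and 9.40 in Control. Its difference was -0.30 ± 0.10 (SE; limma adjusted p = 0.133), and on the JJN3 arrays LenDex lay above CPI203. The other 2 probe sets of PLK1 gave -0.16 and -0.61. In all, 12 of the 37 genes were lower in 6 of 6 pairings, where 8.28% of all genes were.

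FOXM1, the transcription factor of G2 genes, and AURKB, the kinase of the chromosomal passenger complex, were not called. FOXM1 read 8.43, 7.95 and 8.88 with LenDex and 8.47, 7.16 and 8.46 with Combo, against 8.19, 7.19 and 8.39 with CPI203 and 8.40, 7.62 and 8.14 in Control. Its difference of 0.24 had an adjusted p of 0.332, the groups overlapped, and its other probe sets gave -0.15 and 0.07. AURKB read 10.67, 10.19 and 10.94 with LenDex and 10.73, 10.40 and 11.09 with Combo, against 10.72, 10.43 and 11.14 with CPI203 and 10.71, 10.09 and 10.93 in Control, a difference of -0.00 ± 0.07 (SE). CDC25B, a phosphatase that activates CDK1, was the other gene with a larger uncalled rise, at 0.22 (adjusted p = 0.28). Its levels were 10.51, 8.37 and 9.06 with LenDex and 10.52, 8.54 and 9.48 with Combo, against 10.13, 8.43 and 9.45 with CPI203 and 10.12, 8.26 and 8.74 in Control.

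By role, 1 of 7 cyclin, CDK1 and CDC25 genes, 1 of 6 mitotic kinases, 1 of 5 checkpoint and anaphase-promoting complex genes and 1 of 11 kinesins and spindle factors were called lower. Of all genes tested 2.52% were called lower, and 1 call in a role cannot rank the roles. None of the 3 centromere genes, the 2 cytokinesis genes (ANLN, ECT2) or the 3 remaining genes (TOP2A, BIRC5, FOXM1) was called. By line the median difference was -0.01 with 21 of the 37 genes below 0 (ARP1), -0.08 with 28 (JJN3) and -0.23 with 32 (RPMI-8226). For all 15173 genes the medians were -0.02, 0.02 and 0 in the same order, with 8046, 6995 and 7460 genes below 0. In ARP1 the list thus lay close to all genes. Tests of whether a gene's response differed between lines called 0 of 37 (limma's moderated F test, lowest adjusted p = 0.334, for PLK1), where 0.369% of all genes were called. At an unadjusted p under 0.05 the count was 4, against 13.6% of all genes.

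**Figure D1:**
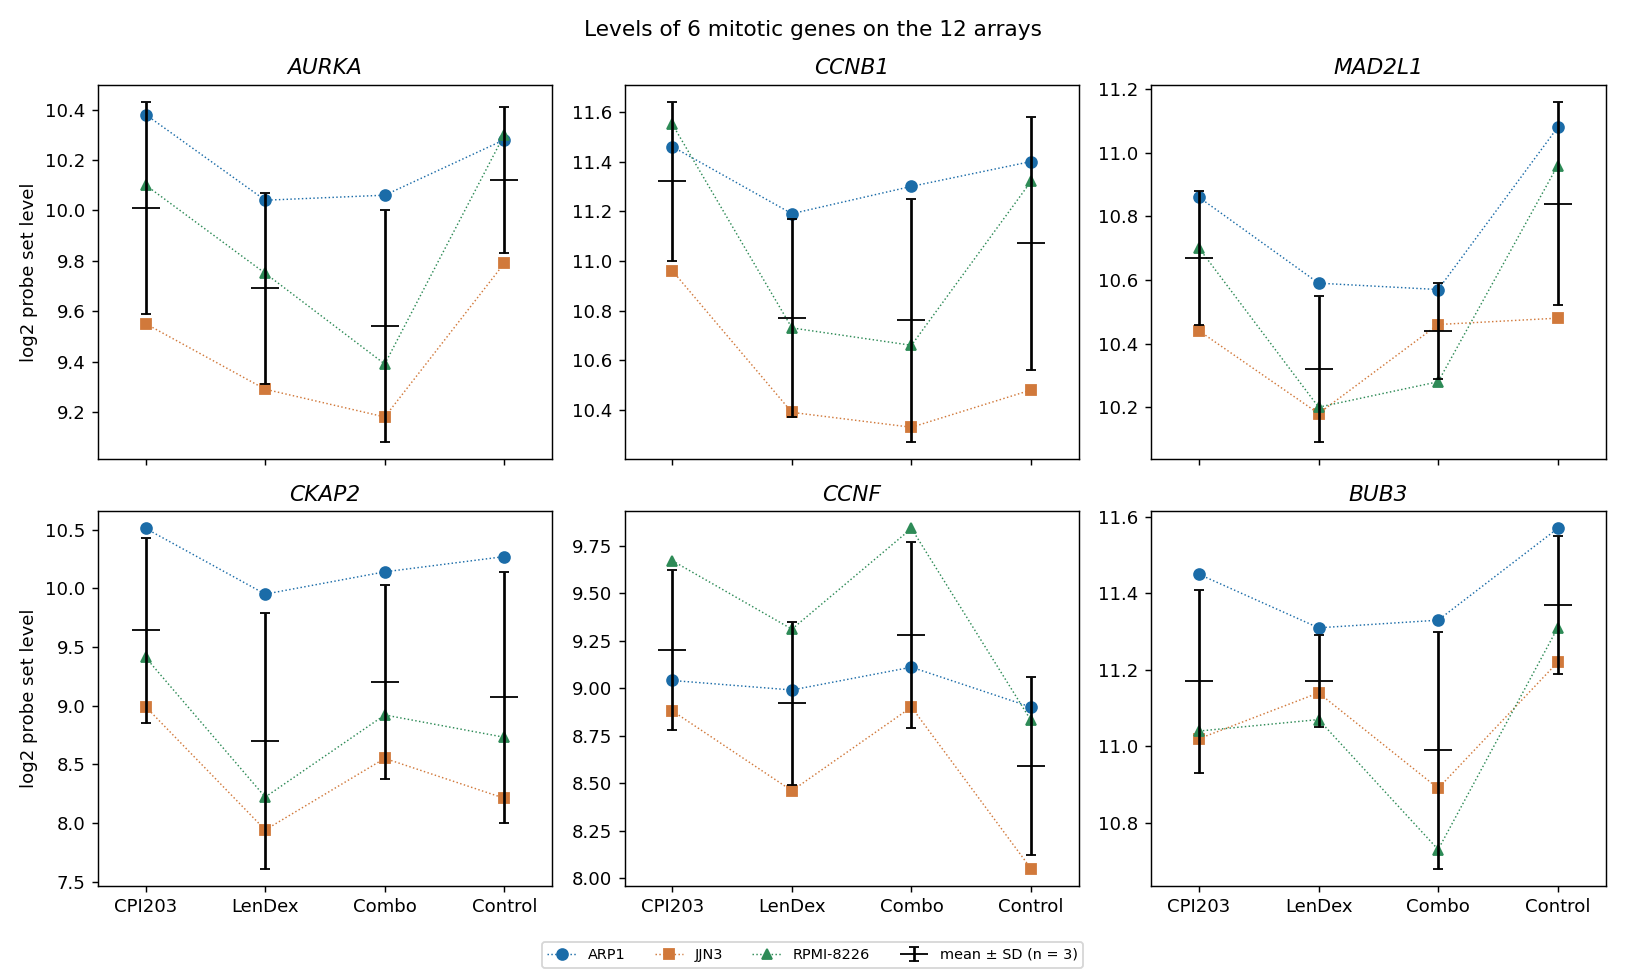
Log2 level (y axis) of AURKA, CKAP2, MAD2L1, CCNB1, CCNF and BUB3 on the 12 arrays, by treatment (x axis: CPI203, LenDex, Combo, Control), with 1 coloured point per array joined by cell line, and the black bar giving the mean ± SD (n = 3). AURKA is lower with LenDex and Combo in all 3 lines.

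CPI203 raised 2 of the 37 genes, CKAP2 and CCNF, and none was called lower. Its average effect sets CPI203 and Combo arrays against LenDex and Control arrays. The 2 calls are 5.41% of 37, a share near the background, where 7.28% of all genes were called in either direction and 3.3% higher. The median difference was 0.06, against -0.00 for all genes, or 0.10 without the RPMI-8226 Combo array and 0.04 without the ARP1 Combo array, and 18 genes were higher in all 3 lines (48.6%, against 19.9%).

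CKAP2 rose by 0.53 ± 0.09 (SE; limma adjusted p = 0.0191), a 1.45-fold rise (ARP1 0.21, JJN3 0.69, RPMI-8226 0.69). Its 5 probe sets gave differences of 0.34 to 0.55. CCNF, which encodes cyclin F, the substrate receptor of a ubiquitin ligase active in G2, read 9.04, 8.88 and 9.67 with CPI203 and 9.11, 8.90 and 9.84 with Combo, against 8.99, 8.46 and 9.31 with LenDex and 8.90, 8.05 and 8.83 in Control. Both arrays with CPI203 lay above both without it in every line. Its average effect was 0.48 ± 0.11 (SE; limma adjusted p = 0.0295), a 1.40-fold rise, and its dimmer probe set gave 0.13. Leaving out any one JJN3 or RPMI-8226 array left 0 calls, the JJN3 control array included, whereas leaving out the ARP1 CPI203 array gave 6 and the ARP1 LenDex array 4. Averaging JJN3 with RPMI-8226 within a treatment also left 0 calls.

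The uncalled genes included several with differences above 0. ANLN, the actin-binding scaffold of the cleavage furrow, read 9.52, 9.12 and 9.74 with CPI203 and 9.42, 8.98 and 9.10 with Combo, against 9.30, 8.69 and 8.88 with LenDex and 9.52, 8.55 and 9.13 in Control (difference 0.30, adjusted p = 0.112). CDC25C, the phosphatase of CDK1, read 8.68, 7.65 and 8.42 with CPI203 and 8.94, 7.63 and 8.01 with Combo, against 8.89, 7.68 and 7.64 with LenDex and 8.35, 7.31 and 7.74 in Control (difference 0.29, adjusted p = 0.168). For both genes arrays with and without CPI203 overlapped within ARP1 and within 1 other line. CDC20, NUSAP1 and BUB1 gave differences of 0.26, 0.27 and 0.26 with adjusted p of 0.0839, 0.0767 and 0.0898.

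The largest uncalled falls were those of BUB1B and FOXM1. BUB1B, which encodes the checkpoint kinase BUBR1, read 9.94, 8.53 and 9.00 with CPI203 and 9.88, 8.76 and 8.86 with Combo, against 9.87, 9.10 and 9.55 with LenDex and 10.00, 8.96 and 9.51 in Control. The arrays with CPI203 were lower in JJN3 and RPMI-8226 and overlapped the others in ARP1, with a difference of -0.34 (adjusted p = 0.0811). FOXM1 gave -0.26 (adjusted p = 0.234). The effects on AURKA, PLK1, CCNB1 and CDK1 were -0.13, -0.18, 0.12 and 0.09, and none of these was called. Tests of a difference between lines in the CPI203 effect called 0 of 37 (limma, lowest adjusted p = 0.242, for BUB1B), against 0.323% of all genes, with 4 at an unadjusted p under 0.05 (14.7% of all genes).

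**Figure D2:**
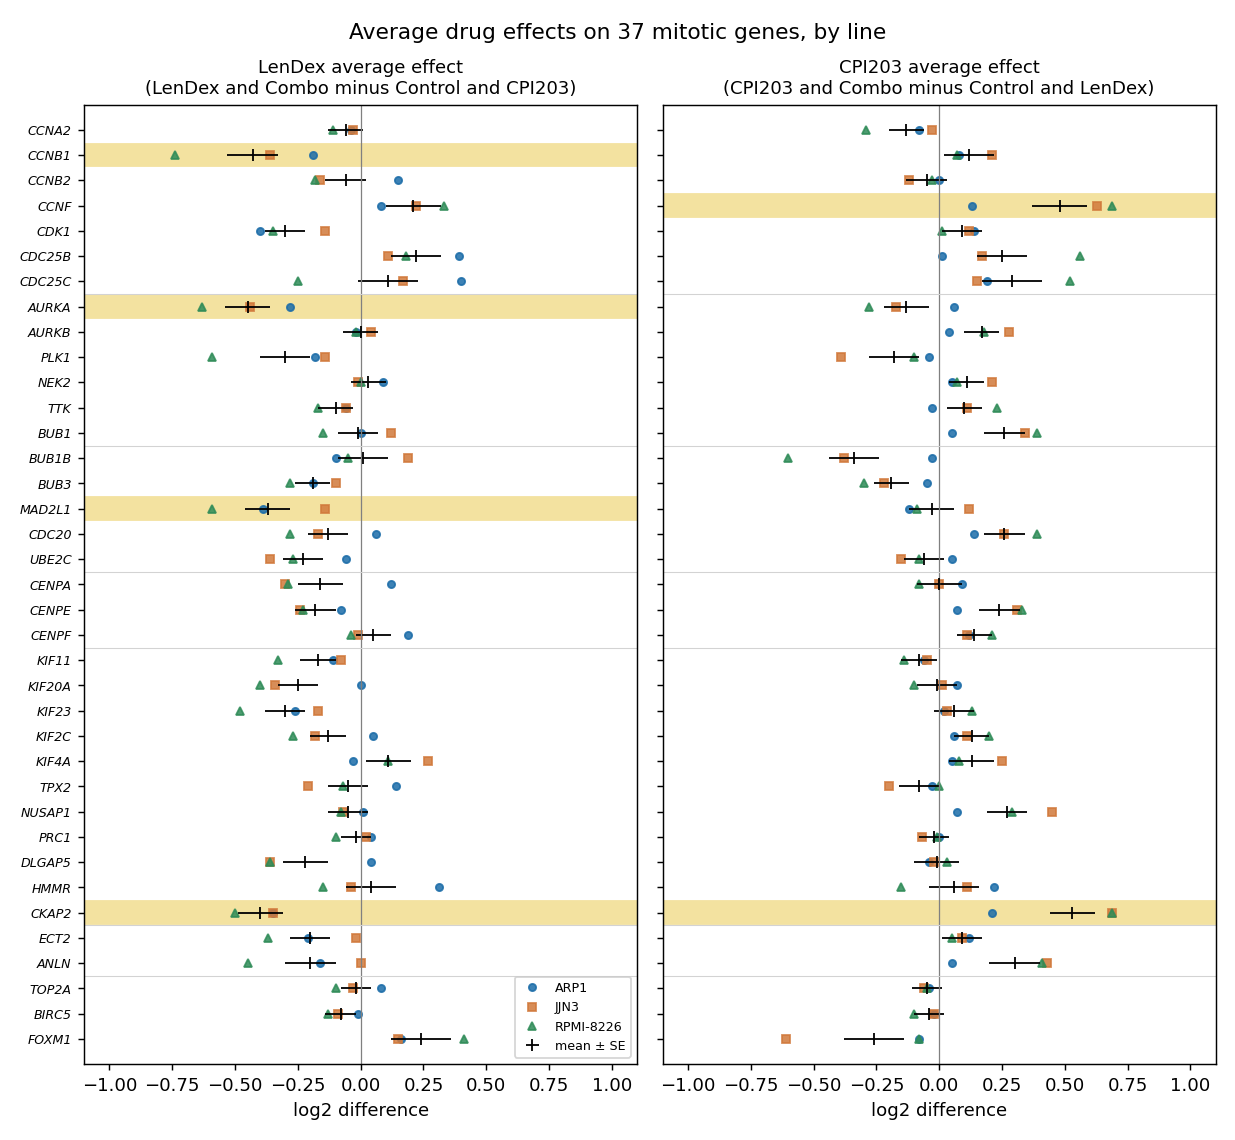
Average effect of CPI203 and of LenDex (log2 difference, x axis) for each of the 37 genes (y axis, grouped by role), with a point per line and the mean ± SE in black. Shaded bands mark called genes, which are 2 higher with CPI203 and 4 lower with LenDex.

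The single treatments were also set against Control, 3 arrays against 3. With CPI203 alone 0 of 37 genes were called in limma, where 0.00659% of all genes were, and 7 had an unadjusted p under 0.05 against 16.2% of all genes. With LenDex alone 0 were called (0.461% of all genes), and 7 had an unadjusted p under 0.05 against 13.7%. The smallest p with CPI203 belonged to CKAP2, at 0.57 ± 0.13 (adjusted p = 0.108), and with LenDex to MAD2L1, at -0.52 ± 0.13 (adjusted p = 0.11). These comparisons share their Control arrays.

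Combo against Control called 3 genes, 8.11% of 37, a share near the background, where 9.15% of all genes were called. AURKA fell by 0.58 ± 0.12 (SE; limma adjusted p = 0.0217), with differences of -0.22, -0.61 and -0.91 in the 3 lines. BUB3, a kinetochore-binding checkpoint protein, read 11.33, 10.89 and 10.73 with Combo, 11.45, 11.02 and 11.04 with CPI203 and 11.31, 11.14 and 11.07 with LenDex, against 11.57, 11.22 and 11.31 in Control. Control was the highest of the 4 arrays in every line, and the fall was 0.38 ± 0.10 (SE; limma adjusted p = 0.0444). The other 2 probe sets of BUB3 gave smaller differences, -0.19 and -0.11. CCNF rose by 0.69 ± 0.15 (SE; limma adjusted p = 0.0223), by 0.21, 0.85 and 1.01 in the lines. That rise rests on 1 of its 2 probe sets, since the dimmer one gave 0.05. PLK1 at -0.48 (adjusted p = 0.0689), MAD2L1 at -0.40 (0.0774) and CDC25B at 0.47 (0.0756) missed the threshold, and CKAP2 at 0.13 (0.607) stood between its values under either treatment alone. Without the JJN3 or RPMI-8226 Control array, or without the JJN3 or RPMI-8226 Combo array, 0 genes were called, and without the ARP1 Combo array 5. Fitted on the arrays of the groups compared alone, or with JJN3 and RPMI-8226 averaged, 0 were called. BUB3 kept its call in 3 of 15 fits that left out 1 line or 1 array. The arrays whose omission ended it included the ARP1 Control and ARP1 CPI203 arrays and every JJN3 and RPMI-8226 array.

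Against LenDex, Combo called 0 genes in limma (0.0% of all genes, 6 at an unadjusted p under 0.05, against 14.9%), and against CPI203 it called 0 (0.0461%, 5 at that p, against 10.9%). Against CPI203, 30 of 37 differences lay below 0 (46.7% of all genes), led by CCNB1 at -0.56 (adjusted p = 0.194). ARP1 did not share this, with 15 of the 37 below 0 and a median of 0.04. The counts were 30 in JJN3 (median -0.11) and 34 in RPMI-8226 (median -0.29). Lower in all 3 lines were 13 genes (35.1%, against 17% of all genes). The interaction, which asks whether Combo departs from the sum of its parts, was called for 0 genes (0.0% of all genes, 0 at an unadjusted p under 0.05, against 3.11%).

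**Figure D3:**
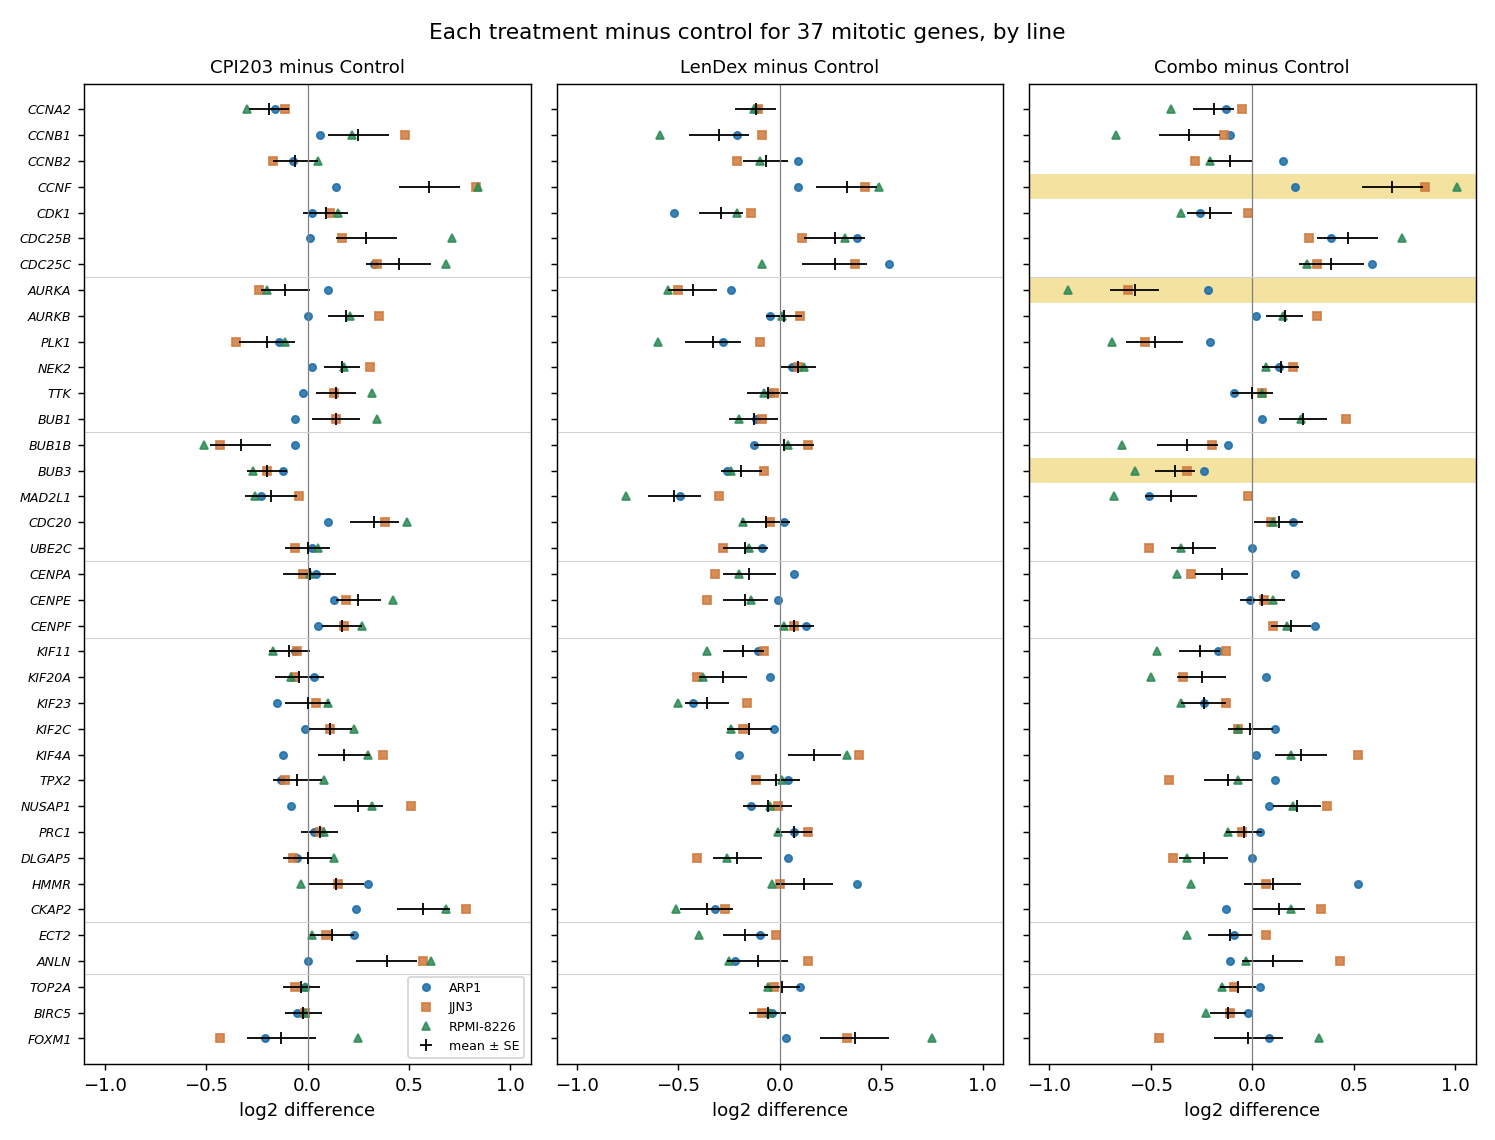
Each treatment minus Control (log2 difference, x axis) for the 37 genes (y axis, grouped by role), with a point per line and the mean ± SE in black. Shaded bands mark the 3 genes called with Combo, and no gene is marked with CPI203 or LenDex alone.

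The members' levels differed more between lines than between treatments. The range of line means exceeded the range of treatment means for 34 of 37 genes, with medians of 0.75 and 0.29, the exceptions being CDK1, BUB3 and MAD2L1. These ranges were not computed for all genes, so the count is not shown to be particular to the list. All 4 ARP1 arrays lay above all 4 JJN3 arrays for 31 genes (83.8%, against 20.6% of all genes), and below them for TTK alone (21.8% of all genes). RPMI-8226 lay above JJN3 for 20 genes (54.1%, against 6.81%) and below it for 0 (8.21%). ARP1 lay above RPMI-8226 for 10 genes (27%, against 19.7%) and below it for 5 (19.6%), namely AURKB, TTK, TPX2, NUSAP1 and ECT2. The median differences were 0.62 for ARP1 minus JJN3, 0.10 for ARP1 minus RPMI-8226 and 0.50 for RPMI-8226 minus JJN3, each against -0.01 for all genes. The proliferation marker MKI67 stood at 10.52 to 10.64 on ARP1 arrays, at 10.55 to 10.64 on JJN3 arrays and at 11.05 to 11.32 on RPMI-8226 arrays. Each line is a single culture line on 4 arrays of different treatment, so line levels carry no test.

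**Figure D4:**
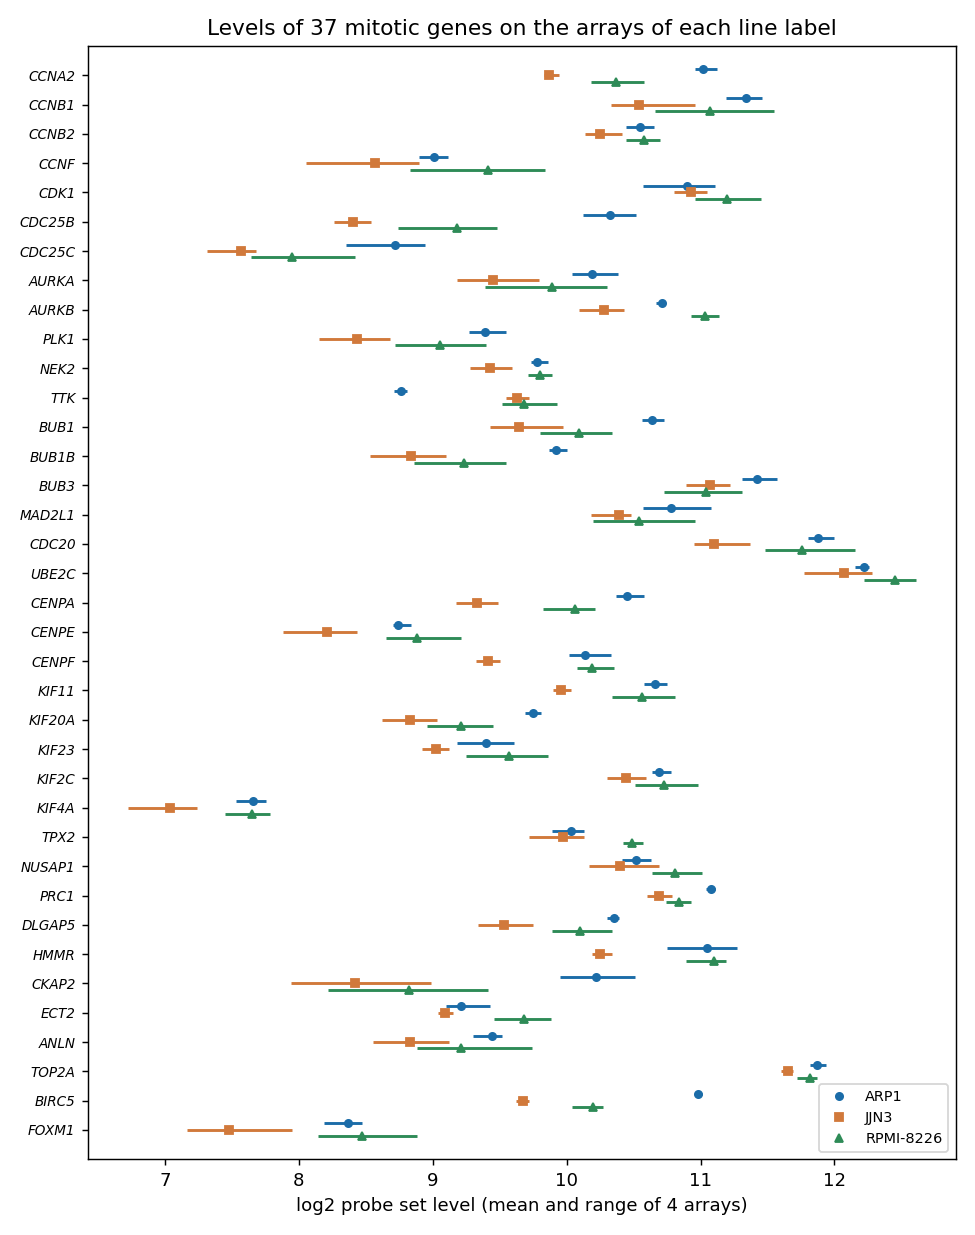
Log2 level (x axis) of the 37 genes (y axis, grouped by role) on ARP1, JJN3 and RPMI-8226 arrays, with a point for the mean of a line's 4 arrays and a bar for their range. ARP1 bars lie wholly above JJN3 bars for 31 genes.

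The wider mitotic lists, 116 genes of the same processes, gave called shares near the background. With LenDex 7 were called, 2 higher and 5 lower (6.03%, against 4.25%). UBE2S, which extends ubiquitin chains for the anaphase-promoting complex, fell by 0.49 (adjusted p = 0.0107), and BORA, the activator of Aurora A, fell by 0.28 (adjusted p = 0.0418). ANAPC10, a subunit of that complex, fell by 0.41 (adjusted p = 0.0486), E2F5 and TFDP2, of the E2F family and its partners, fell by 0.78 and 0.46, while DSN1, a kinetochore gene, and CIT, the citron kinase of cytokinesis, rose by 0.41 and 0.64. With CPI203 9 were called, 4 higher and 5 lower (7.76%, against 7.28%). The cohesin genes STAG1, STAG2 and PDS5B fell by 0.62, 0.27 and 0.30, and MASTL, the Greatwall kinase, rose by 0.46. MYBL1, a MYB family gene, rose by 1.06, but by only 0.07 in ARP1, against 1.24 in JJN3 and 1.85 in RPMI-8226. E2F5 fell by 0.65. With Combo against Control 11 were called, 5 higher and 6 lower (9.48%, against 9.15%), among them E2F5 at -1.43 and LIN37, a MuvB subunit, at 1.06.

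The G1 and S phase replication genes were counted beside them. The CPI203 effect called 7 of 36 (19.4%, against 7.28%), with MCM2, GINS1, POLE2, RFC3 and E2F1 lower and RRM2 and CDC6 higher. The median of the 36 was -0.16. By line it was -0.01 in ARP1, with 19 of 36 below 0, -0.21 in JJN3 (23) and -0.24 in RPMI-8226 (27). With LenDex 1 of 36 was called, POLA1 at 0.26, with a median of 0.07 for the 36 (ARP1 -0.1, JJN3 0.22, RPMI-8226 0.01). The difference between the lists was not tested.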

How the data were processed

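Each deposited value is the log2 level of a probe set, which the authors computed with RMA (Affymetrix Expression Console 1.1, as the submitters' processing notes say). RMA scales each array on all its probes, so a change is relative to the typical transcript. The sources used here do not give whether all 12 arrays were scaled as 1 set. Array medians ran from 5.304 to 5.375. Of 49386 probe sets, 93 were controls, 45253 named 1 gene, 1327 several and 2713 none. A gene was tested when its highest-mean probe set reached a log2 level of 5 on at least 3 arrays.

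The fit used limma 3.58.1 in R 4.3.3 with line and treatment as terms over 12 arrays, and Benjamini-Hochberg adjustment over 15173 genes. Line was a block because same-numbered arrays come from the same line. Deviations of arrays from their treatment means correlated within a line (ARP1 0.91 to 0.94, JJN3 0.82 to 0.88, RPMI-8226 0.83 to 0.89). Line differences were tested with a moderated F test. The steps were tested on simulated data.

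The genes and lists were chosen with earlier results of these data known. Per-array values are given for called genes, for the 2 largest uncalled rises and falls of each average effect, and for CDK1, CCNB1, PLK1, AURKA, AURKB and FOXM1. Alternatives covered the level filter, probe set choice, normalization, variance model, block, arrays used, and each line or array left out.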

Additional observations from a re-analysis of the deposited data

How the results depend on the processing

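The number of members called was read under each alternative, and called differences kept their direction in every one. The share of all genes called was not counted under the alternatives. A higher or lower count is therefore not shown to be particular to the list. For the LenDex average effect (4 in the fit reported) the count was 3 with no level filter, 6 at a mean log2 level of 6 or more, 1 with probe sets tested singly, 2 with the probe set of largest spread, 1 with cyclic loess, 6 with median centring, 8 with a trended robust variance, and 0 with JJN3 and RPMI-8226 averaged. Leaving out lines or arrays gave 0 to 5. For CPI203 (2) the count was 4 at the stricter level, 7 with the trended robust variance and 0 when averaged, and leave-outs gave 0 to 8. For Combo against Control (3) it was 6 at the stricter level, 7 with the trended robust variance, 0 on the arrays compared alone and 0 when averaged, and leave-outs gave 0 to 5. With the trended robust variance CPI203 against Control gave 2, LenDex against Control 1 and the line difference in LenDex 1, against 0 in the fit reported. Leave-outs gave 0 to 2 for CPI203 against Control and 0 to 1 for Combo against LenDex. With no replicate block all 3 counts above 0 became 0, since the differences between lines then entered the error. The AURKB difference with LenDex, near 0, was 0.04 with cyclic loess and -0.03 to 0.03 in the leave-outs. KIF23 and CDK1 became called at the stricter level. The number of arrays, 1 per line and treatment, limits the precision.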

Other observations

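The genes outside the lists whose levels followed the members' median most closely, after line means were removed, were SUB1 (Pearson r 0.92 over 12 arrays), DLEU7 (0.90), API5 (0.89), ZNF12 (0.89) and ARHGAP11A (0.88). These are descriptions and the arrays share a treatment design. Among the members themselves r ran from -0.58 for FOXM1 to 0.86 for CENPA, KIF20A and KIF2C, with each gene part of the median it is set against.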
